A study of Homo sapiens with 12 samples.

Results

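Binding of cohesin and CTCF was described in 3 chromosomal domains that are known for limb and skeletal disease in humans. The domains hold 8 genes by which they were chosen. WNT6, IHH, EPHA4 and PAX3 lie in the EPHA4 domain, chr2:219600000-223300000. KCNJ2 and SOX9 lie in the SOX9 domain, chr17:67500000-70500000. SHH and LMBR1 lie in the SHH domain, chr7:155400000-156900000. All positions are in build hg19. The members are the SMC1 and CTCF peaks whose summits fall in these 8.20 Mb, sorted by their position between the 8 genes. They were taken by position alone, without use of any measured value, and are 601 of the 265912 SMC1 and CTCF peaks of the series. The genes and domains themselves were chosen with earlier results of these data known. Merged over genotypes, the members form 80 of 38018 SMC1 regions and 124 of 53945 CTCF regions, or 133 sites when SMC1 and CTCF peaks that overlap are joined.

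The study used chromatin immunoprecipitation followed by sequencing (ChIP-seq) in HAP1 cells, a nearly haploid line that was grown out of human leukaemia cells and has impaired p53. Antibodies were against SMC1, a core subunit of the cohesin ring, against CTCF, or non-specific IgG, each in 4 genotypes. These were wild-type cells, ΔWAPL cells (clone 3.3, in which CRISPR put a Blasticidine resistance cassette into WAPL, the cohesin release factor), ΔSCC4 cells (with a Puromycin cassette in SCC4, also called MAU2, which with SCC2 loads cohesin onto DNA), and ΔWAPL/ΔSCC4 cells, or the double knockout, made by knocking out SCC4 in ΔWAPL. Where 4 values follow each other without names, they are those of wild-type, ΔWAPL, ΔSCC4 and the double knockout in this order. Every group was 1 library and every knockout line 1 clone, so there are no replicates and no test was made between genotypes. The intervals given are 95% intervals of counting error within these libraries, and clone, culture and precipitation cannot be told apart from genotype. The peak lists cannot show whether WAPL or SCC4 was lost. HAP1 cells are not limb cells, and expression of the 8 genes was not analysed here.

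Cohesin is thought to enlarge DNA loops until it meets CTCF, a zinc-finger protein whose binding motif is not symmetric, so that a site points to the left or to the right along the chromosome. Topologically associating domains (TADs) are stretches flanked by such sites in which enhancers and promoters meet. The 3 domains named here are windows fixed by position, and their ends were not taken as TAD borders. They hold textbook cases of TADs in disease. Structural variants across the borders of the TAD around EPHA4 bring limb enhancers to WNT6, IHH or PAX3 and cause malformed digits. Duplications between KCNJ2 and SOX9 can create a new TAD and misexpress KCNJ2. SHH, a secreted morphogen, is switched on in the limb bud by the ZRS, an enhancer in an intron of LMBR1 far from its target, and changes in the ZRS cause extra digits.

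CTCF motifs were searched in the 50 bp on either side of each summit on both strands with a 19-bp matrix whose consensus is TGGCCACCAGGGGGCGCTA. The matrix was learned from 1000 CTCF peaks on other chromosomes, and a window counted as a match at a score that 5% of equally long flanking windows reach. Genome-wide, 80.2% of wild-type CTCF peaks held a match. The order of motif strands along a domain was read over all sites with CTCF in any genotype. It need not be the order of bound sites in any single genotype. The sites below are shown because the SHH, EPHA4 and SOX9 results turn on them, each with 20 bases of reference sequence on either side and the matched motif in capitals, 5′ to 3′ on the strand of the motif. The first 5 are the sites around SHH and on the way to LMBR1 that carry SMC1 in wild-type cells, in map order. The next 3 are the strongest SMC1 site of the EPHA4 domain, the site at the EPHA4 start and the site within IHH. The last 3 are the SMC1 site of the SOX9 domain found in all 4 genotypes and the pair between KCNJ2 and SOX9 at which the motif strand turns.
Downstream of SHH, chr7:155589801-155589859, plus strand: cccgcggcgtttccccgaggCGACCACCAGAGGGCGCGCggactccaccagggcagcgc
SHH intron 2, chr7:155597828-155597886, plus strand: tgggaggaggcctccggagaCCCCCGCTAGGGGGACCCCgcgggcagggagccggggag
Upstream of SHH, chr7:155608093-155608151, plus strand: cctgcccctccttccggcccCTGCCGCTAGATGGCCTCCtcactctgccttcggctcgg
RNF32-DT intron 2, chr7:156266336-156266394, minus strand: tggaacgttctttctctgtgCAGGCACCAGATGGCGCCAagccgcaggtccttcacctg
LMBR1 intron 5, chr7:156556923-156556981, minus strand: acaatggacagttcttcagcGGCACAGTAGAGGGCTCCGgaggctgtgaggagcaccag
Near SLC4A3, chr2:220507378-220507436, minus strand: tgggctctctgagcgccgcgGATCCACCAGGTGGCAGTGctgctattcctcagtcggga
EPHA4 start, chr2:222438388-222438446, minus strand: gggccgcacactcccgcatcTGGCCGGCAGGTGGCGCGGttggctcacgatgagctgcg
IHH intron 1, chr2:219922862-219922920, plus strand: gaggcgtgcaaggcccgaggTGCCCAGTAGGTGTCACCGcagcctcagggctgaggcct
Upstream of KCNJ2, chr17:67565323-67565381, plus strand: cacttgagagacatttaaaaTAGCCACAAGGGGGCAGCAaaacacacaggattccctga
Turn, left side, chr17:68626231-68626289, minus strand: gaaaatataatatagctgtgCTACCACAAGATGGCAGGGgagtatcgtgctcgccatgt
Turn, right side, chr17:68632833-68632891, plus strand: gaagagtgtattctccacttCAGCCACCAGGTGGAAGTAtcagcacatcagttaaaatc

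Over the 3 domains, SMC1 peaks were more numerous in both lines without WAPL and fewer in ΔSCC4, while CTCF peaks varied less. There were 35 SMC1 peaks in wild-type cells, 70 without WAPL, 27 without SCC4 and 57 in the double knockout. Relative to wild-type, ΔWAPL had 2.00 times the number (1.34 to 2.99), ΔSCC4 0.771 times (0.469 to 1.27) and the double knockout 1.63 times (1.07 to 2.47). The interval for ΔSCC4 included 1, and the genome-wide ratios were 1.83, 0.689 and 1.44. The deposited SMC1 lists used here held 18542, 33952, 12779 and 26558 peaks. The paper reports more SMC1 peaks than these lists hold for ΔWAPL and the double knockout, and fewer for ΔSCC4. Its differences from wild-type are therefore larger, and why the numbers differ was not examined. CTCF peaks numbered 101 in wild-type cells, 112 without WAPL, 84 without SCC4 and 115 in the double knockout, and none of the 3 ratios to wild-type, from 0.832 to 1.14, had an interval that left out 1. These intervals treat the 2 lists as independent, although they share many regions, so including 1 does not show that the lists agree. Of 35 wild-type SMC1 peaks 26 were found in ΔSCC4, and of 27 ΔSCC4 peaks 26 were found in wild-type. For CTCF these were 82 of 101 and 82 of 84. The 4 IgG lists held no peak in any of the domains. Depth recovered from the lists was 6.79 to 8.41 reads per kb for SMC1 and 6.53 to 8.41 for CTCF, so the libraries of an antibody differed little in depth. With peaks of −log10 q of at least 5 only, where q is the peak caller's adjusted p-value, the ΔWAPL ratio was 1.77. It was 1.95 at −log10 q of at least 10 and 1.63 at a fold enrichment of at least 5.

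Peaks of ΔWAPL that wild-type cells lacked were about as frequent here as elsewhere in the genome. Of the 80 SMC1 regions, 38 had a peak in ΔWAPL and none in wild-type (47.5%, 36.9 to 58.3), against 43.5 percent of all SMC1 regions. The opposite, a peak in wild-type and none in ΔWAPL, was seen in 3 of 80 regions, against 3.03 percent. Of the 35 wild-type regions, 9 had no peak in ΔSCC4 (25.7%, 14.2 to 42.1), fewer than the 39.6 percent of the genome, which lies inside the interval. A peak in all 4 genotypes was found in 25 of 80 SMC1 regions, against 28.2 percent, and in 80 of 124 CTCF regions, against 64.2 percent. Wild-type SMC1 peaks without a counterpart in ΔSCC4 mostly ranked low. By −log10 q, their median rank was at percentile 17.9 of the wild-type list, whereas that of the 26 found in ΔSCC4 was at percentile 63.2. Likewise the 38 ΔWAPL peaks absent from wild-type had a median rank at percentile 25.0 of the ΔWAPL list and the 32 shared ones at percentile 84.5.

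Cohesin in these domains lay at CTCF. Each of the 35 SMC1 peaks of wild-type cells overlapped a CTCF peak, as did each of the 27 in ΔSCC4 and the 57 in ΔWAPL/ΔSCC4, while 60 of 70 did in ΔWAPL (85.7%, 75.7 to 92.1). The genome-wide shares were 94.5 percent, 95.2 percent, 93.5 percent and 81.6 percent in that order. The 10 ΔWAPL peaks without CTCF had fold enrichments of 2.74 to 5.06, below the median of 6.45 over the 70. Their levels, which are summit reads over the genome average of the library, were 6.28 to 11.3 but for 1 in EPHA4 at 28.9, against a median of 15.1. Of these 10 peaks, 6 lay within 1 kb of a start site (interval of the share 31.3 to 83.2%), against 83.8% of such peaks in the genome. The converse did not hold, since 34.7% of CTCF peaks in the domains carried SMC1 in wild-type cells, 53.6% without WAPL, 32.1% without SCC4 and 50.4% in the double knockout. The genome-wide shares were 40.7%, 60.8%, 32.3% and 52.2%. Sites with and without SMC1 differed in the strength of CTCF, here as in the genome. When the 100 sites with a wild-type CTCF peak were divided at their median fold enrichment of 12.7, SMC1 was present in wild-type cells at 31 of the 50 stronger sites (62.0%, 48.2 to 74.1) and at 4 of the 50 weaker ones (8.00%, 3.15 to 18.8). In ΔWAPL it was present at 40 and 18 of them. Of all wild-type CTCF peaks of the genome divided at the same value, 69.6% of the stronger and 14.5% of the weaker ones carried SMC1 in wild-type cells. Fold enrichment, as the peak caller gives it, is the number of reads over the summit plus 1, divided by the local background plus 1, so that it lies below the plain ratio, most where reads are few. Its wild-type CTCF median, over sites with a wild-type CTCF peak only, was 17.9 at the 35 sites with SMC1 in wild-type cells. For those that carried SMC1 in ΔWAPL but not in wild-type it was 11.8, over 26 of 38 sites. For those with SMC1 in neither it was 7.05, over 39 of 60 sites. A motif match was found under 34 of the 35 wild-type CTCF peaks with SMC1 and under 45 of the 66 without it, or 97.1% and 68.2%, against 92.7% and 72.04% in the genome.

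**Figure D1:**
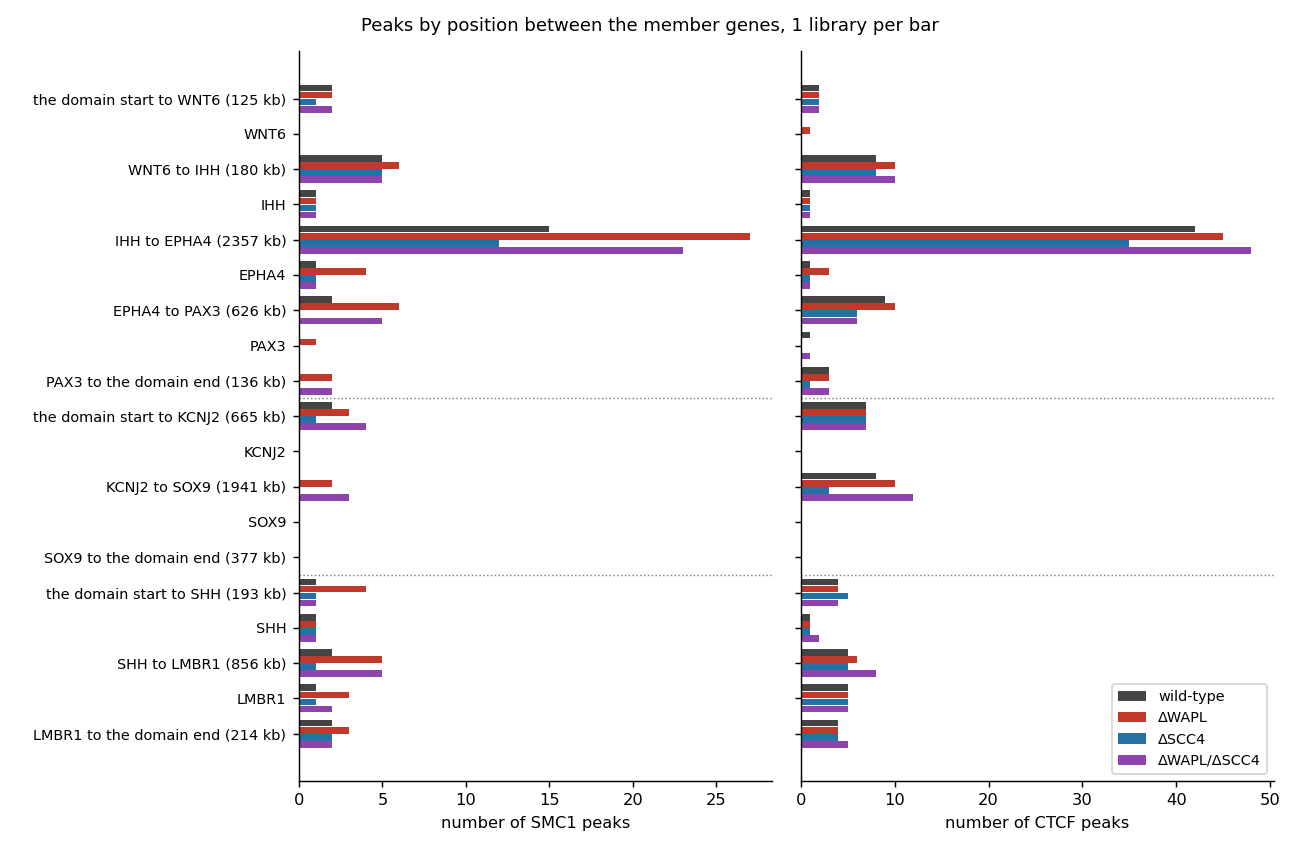
Number of SMC1 peaks (left) and CTCF peaks (right) in each stretch of the 3 domains, ordered along the chromosomes, with gene bodies between the stretches and 1 bar per genotype. The stretch from IHH to EPHA4 held 15, 27, 12 and 23 SMC1 peaks across the 4 genotypes, and the stretch from SOX9 to the domain end held none of either kind.

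In the SHH domain, SHH and LMBR1 each carried SMC1 in all 4 genotypes, with the highest levels in ΔWAPL. The domain held 7 SMC1 peaks in wild-type cells, 16 without WAPL, 6 without SCC4 and 11 in the double knockout, on 19, 20, 20 and 24 CTCF peaks. SHH sat in a cluster of 3 sites within 18.3 kb, downstream of the gene, in its intron 2 and 2.97 kb upstream of its start. At the intron 2 site the SMC1 fold enrichment was 6.06 in wild-type cells, 10.3 without WAPL, 8.55 without SCC4 and 9.87 in the double knockout. The reads over the summit were 18, 82, 29 and 49. Expressed as a multiple of the genome average of each library, these are levels of 11.4, 51.5, 17.3 and 31.8, so that ΔWAPL was 4.51 times the wild-type (2.68 to 7.98) and ΔWAPL/ΔSCC4 2.78 times (1.59 to 5.08). The local background differed too, with 1.35 times the genome average in wild-type and 4.41 times in ΔWAPL, and the fold enrichment, which is taken over it, differed less than the level. This background is counted from the same library's reads in 10 kb, so it includes reads of the SMC1 peaks there and is not separate from them. CTCF at the same site was 21.4, 17.7, 18.7 and 16.4 in fold enrichment, lower in the 3 mutant lines than in wild-type.

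The site upstream of SHH had SMC1 fold enrichments of 5.49 in wild-type cells, 9.80 without WAPL and 10.6 in the double knockout, and no peak was called in ΔSCC4. Its level in ΔWAPL was 3.09 times the wild-type (1.73 to 5.82) and in ΔWAPL/ΔSCC4 2.68 times (1.48 to 5.11). CTCF was present there in all 4 genotypes, with fold enrichments of 17.7, 17.8, 15.2 and 20.8. The site downstream of SHH held SMC1 at 6.87, 11.98, 6.77 and 9.30. All 3 sites thus stood highest in the lines without WAPL, and all 3 carried their motif on the plus strand, pointing towards LMBR1.

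Between SHH and LMBR1, a stretch of 856 kb, SMC1 was sparse in wild-type cells and less so without WAPL. There were 2 SMC1 peaks in wild-type cells, 5 without WAPL, 1 without SCC4 and 5 in the double knockout, and 5, 6, 5 and 8 CTCF peaks. The next wild-type SMC1 site after the one upstream of SHH lay 658 kb away, in intron 2 of the non-coding gene RNF32-DT. Its SMC1 fold enrichments of 8.75, 10.1, 9.37 and 10.5 differed little between genotypes, and the level in ΔWAPL/ΔSCC4 was 1.67 times the wild-type (1.04 to 2.72). A site in intron 3 of RNF32 had peaks only in the lines without WAPL, for both antibodies. ΔWAPL had an SMC1 fold enrichment of 7.90 and the double knockout of 7.13, and the CTCF fold enrichments were 8.40 and 11.9.

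LMBR1, which encodes a membrane protein and hosts the ZRS, carried 5 CTCF sites in its introns 3 to 5, and each had a peak in all 4 genotypes. Of these, 1 site in intron 5 had SMC1 in all 4. Its SMC1 fold enrichment was 6.64 in wild-type cells, 15.7 without WAPL, 6.89 without SCC4 and 9.73 in the double knockout, from 18, 66, 20 and 39 reads. The level in ΔWAPL was 3.63 times that in wild-type (2.13 to 6.50), and in ΔWAPL/ΔSCC4 it was 2.22 times (1.24 to 4.11). CTCF fold enrichment was 17.6, 16.9, 11.3 and 18.8, so CTCF was level between wild-type and ΔWAPL where SMC1 differed. A site in intron 3 had SMC1 only in ΔWAPL (4.99) and ΔWAPL/ΔSCC4 (4.93), and a site in intron 4 only in ΔWAPL (4.53). The remaining 2 intronic sites had CTCF fold enrichments of 3.95 to 9.25 and no SMC1 in any genotype. A further CTCF site, 334 bp from the nearest LMBR1 start and outside the gene, had a peak in all 4 genotypes and no SMC1 in any. No position of the ZRS itself was used.

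The motif strands at SHH and within LMBR1 point towards each other. The 3 sites around SHH were on the plus strand and the next 3 with a match, up to RNF32-DT, on the minus strand. The following 3 matches before LMBR1 were plus, minus and plus, and the last of them, in RNF32, had CTCF only in the lines without WAPL. The 3 LMBR1 sites with a match were on the minus strand, and the 3 beyond the LMBR1 start were on the plus strand. The site in LMBR1 intron 5 lay 949 kb from the site upstream of SHH and faced it. Its match reached the score that 5% of flanking windows reach, but not the stricter score that 1% reach. Among the 7 sites with wild-type SMC1, all had a match, 5 plus and 2 minus. This orientation is read from the sequence, and no contact between the sites was measured here.

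**Figure D2:**
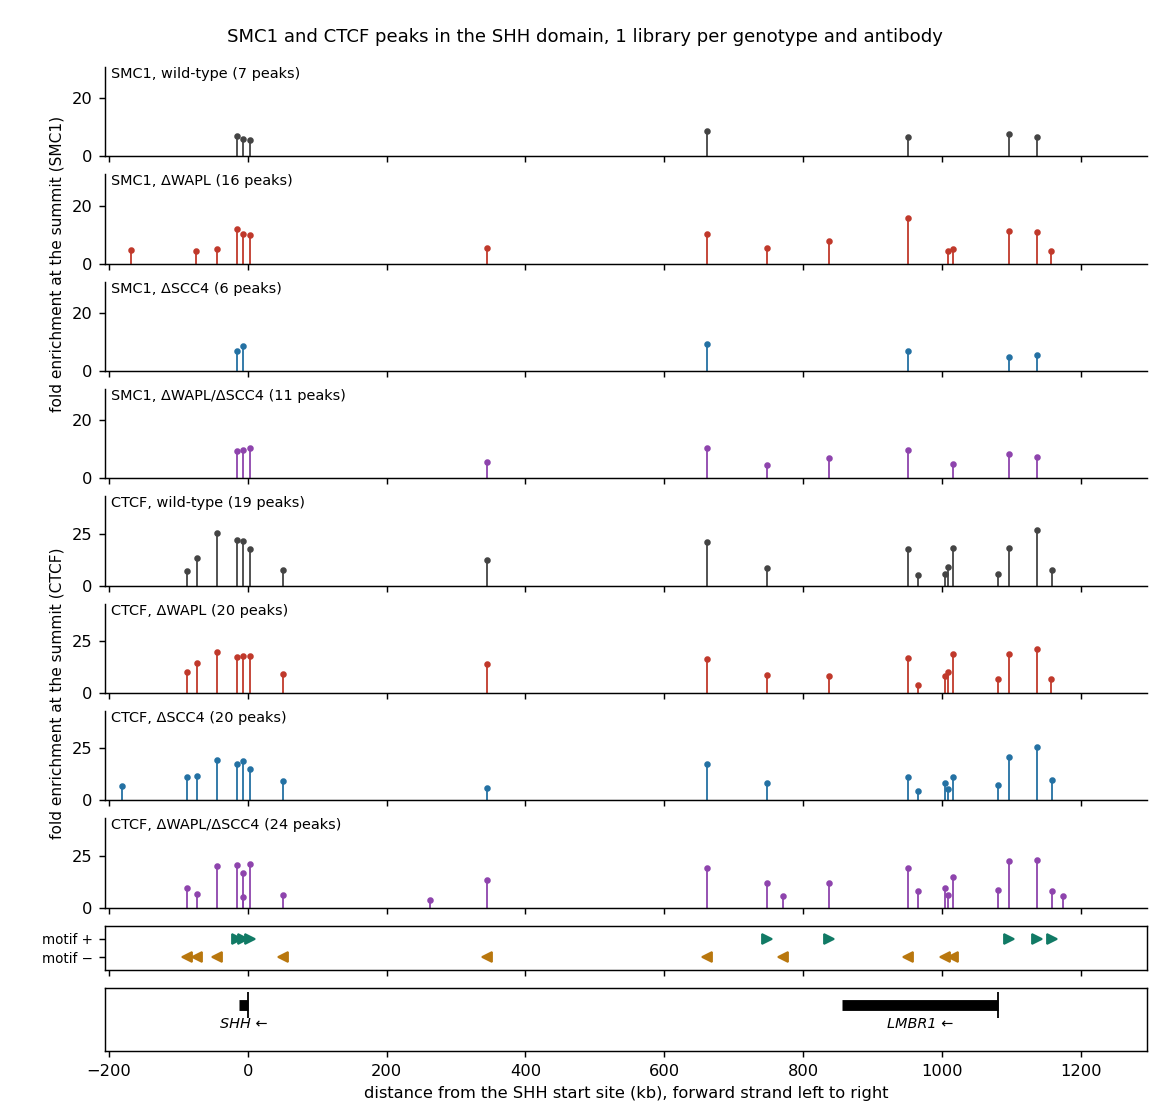
SMC1 and CTCF peaks of the SHH domain by genotype, with the fold enrichment at each summit against the distance from the SHH start in kb, arrowheads for the strand of the matched motif and black bars for the genes. SMC1 peaks number 7, 16, 6 and 11 from top to bottom, and of the 9 sites with SMC1 in ΔWAPL but not in wild-type, 3 lie before SHH, 3 between SHH and LMBR1, 2 inside LMBR1 and 1 beyond it.

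In the EPHA4 domain, SMC1 peaks crowded into the gene-rich part around WNT6 and IHH, and the desert before EPHA4 held few. The domain had 26 SMC1 peaks in wild-type cells, 49 without WAPL, 20 without SCC4 and 39 in the double knockout, and 67, 75, 54 and 72 CTCF peaks. WNT6, which encodes a WNT ligand, had no SMC1 peak in its body in any genotype and 1 CTCF peak in intron 1, called only in ΔWAPL with a fold enrichment of 5.06. The sites nearest its start with both proteins in wild-type lay 6.81 kb before it and 16.96 kb after it. The latter had SMC1 fold enrichments of 8.46, 10.7, 5.27 and 9.51 across the 4 genotypes. From WNT6 to IHH there were 5, 6, 5 and 5 SMC1 peaks in 180 kb, but at −log10 q of at least 10 there were 4, 5, 1 and 5.

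IHH, a hedgehog ligand of cartilage growth, carried SMC1 and CTCF in intron 1 in all 4 genotypes. SMC1 fold enrichment was 7.00 in wild-type cells, 7.85 without WAPL, 4.96 without SCC4 and 7.61 in the double knockout, from 25, 32, 15 and 27 reads. No ratio to wild-type at this site had an interval that left out 1. CTCF there was 17.4, 20.0, 17.4 and 19.3 in fold enrichment. Next to IHH, a site in the untranslated part of the last exon of NHEJ1, a DNA end-joining factor, had SMC1 at 4.73, 5.34 and 5.35 in wild-type, ΔWAPL and ΔWAPL/ΔSCC4 and no peak in ΔSCC4.

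The strongest SMC1 peak of the 3 domains lay between IHH and EPHA4, in intergenic sequence just past the anion exchanger gene SLC4A3, where the gene-rich part ends. Its SMC1 fold enrichment was 15.4 in wild-type cells, 19.2 without WAPL, 12.5 without SCC4 and 13.1 in the double knockout, on CTCF at 25.7, 24.6, 23.6 and 21.2. With 60 reads in wild-type and 129 in ΔWAPL, the SMC1 level was 2.13 times higher (1.55 to 2.94), and ΔWAPL/ΔSCC4 stood at 0.537 of ΔWAPL (0.393 to 0.726). Another 1045 kb on lay a site in an intron of a long non-coding RNA gene, with SMC1 at 6.22, 9.90, 6.79 and 5.92. No other SMC1 site of all 4 genotypes lay between the SLC4A3 site and the EPHA4 start. The longest stretch without an SMC1 peak measured 997 kb in wild-type cells, 868 kb without WAPL, 1045 kb without SCC4 and 689 kb in the double knockout, and all 4 ended or began at that site.

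EPHA4, an ephrin receptor, had SMC1 near its start in all 4 genotypes and, in ΔWAPL, further SMC1 at the canonical start and in its body. The site lay 1.40 kb upstream of the start of the canonical transcript and 455 bp from the nearest annotated EPHA4 start. SMC1 fold enrichment was 6.39 in wild-type cells, 6.42 without WAPL, 4.02 without SCC4 and 6.23 in the double knockout, which on this scale left ΔWAPL level with wild-type. The reads over the summit were 41, 110, 20 and 56. The level in ΔWAPL was 2.66 times that in wild-type (1.84 to 3.90), that of ΔSCC4 was 0.460 times (0.255 to 0.803), and that of the double knockout was 0.526 of the ΔWAPL level (0.374 to 0.732). Here, too, the background under the peak, which includes reads of the SMC1 peaks within its 10 kb, differed. It was 3.53, 10.2, 2.52 and 5.28 times the genome average in the same order. CTCF at the EPHA4 start had fold enrichments of 16.7, 13.3, 17.8 and 16.9. Within the gene span of EPHA4, 3 more SMC1 peaks were called in ΔWAPL only, with fold enrichments of 2.46 to 3.70, and 1 of them overlapped a CTCF peak. Since fold enrichment is taken over that raised background, peaks with 41 and 46 reads had values of only 2.46 and 2.74. The peak with 46 reads, which had no CTCF, had its summit at chr2:222437190, just upstream of the canonical start at chr2:222437024. It lay closer to that start than the site of all 4 genotypes.

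From EPHA4 to PAX3, 626 kb, SMC1 peaks numbered 2 in wild-type cells, 6 without WAPL, 0 without SCC4 and 5 in the double knockout, on 9, 10, 6 and 6 CTCF peaks. The strongest CTCF site of this stretch by the wild-type list, with CTCF at 20.6, 17.8, 18.9 and 15.2, carried SMC1 only without WAPL, at 4.90 in ΔWAPL and 5.40 in ΔWAPL/ΔSCC4. No motif match was found at that site. The site with SMC1 in wild-type that was nearest to PAX3 lay 260 kb downstream of the PAX3 start, with SMC1 at 4.66 in wild-type cells, 6.47 without WAPL and 7.28 in the double knockout and no peak in ΔSCC4. PAX3 encodes a transcription factor of muscle and neural crest precursors. In its intron 4 there was a ΔWAPL SMC1 peak without CTCF (4.27) and, at another position, weak CTCF in wild-type (4.21) and ΔWAPL/ΔSCC4 (4.96). Beyond PAX3, a site in the first exon of ENSG00000288658 carried SMC1 in ΔWAPL (6.63) and ΔWAPL/ΔSCC4 (6.76) and not in the other 2 lines.

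The motif strands of the EPHA4 domain were mixed in the gene-rich part, with 33 plus and 29 minus matches over the whole domain. These were counted over the 81 sites with CTCF in any genotype. From the site in the non-coding gene through the EPHA4 start and onwards, 6 matches in a row over 1311 kb were on the minus strand, and the 5 after them, towards and past PAX3, were on the plus strand. The 2 runs were 26.7 kb apart.

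**Figure D3:**
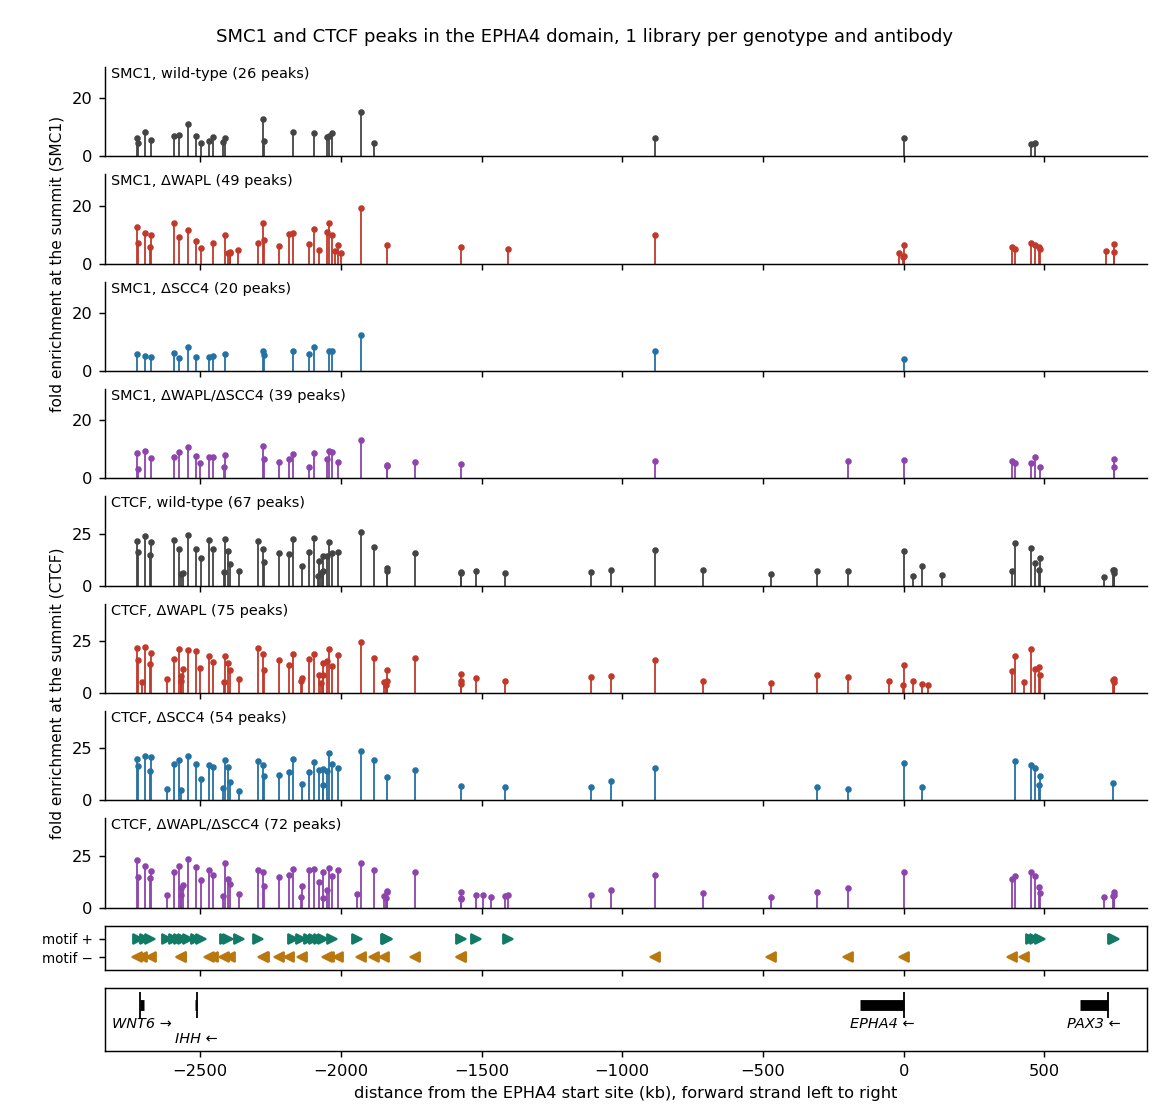
SMC1 and CTCF peaks of the EPHA4 domain by genotype, drawn as fold enrichment at the summit against the distance from the EPHA4 start in kb, with motif strands and genes beneath. SMC1 peaks number 26, 49, 20 and 39 from top to bottom, and most lie in the gene-rich part on the left, which ends at the highest SMC1 peak.

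The SOX9 domain held the least cohesin. There were 2 SMC1 peaks in wild-type cells, 5 without WAPL, 1 without SCC4 and 7 in the double knockout over 3.0 Mb. Wild-type density was 0.667 SMC1 peaks per Mb, against 7.03 in the EPHA4 domain, 4.67 in the SHH domain and 6.08 in the genome. CTCF was sparse as well, with 15, 17, 10 and 19 peaks, and 5.00 per Mb in wild-type against 14.2 in the genome. With so few peaks, none of the ratios to wild-type in this domain had an interval that left out 1.

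KCNJ2 encodes an inwardly rectifying potassium channel, and SOX9 a transcription factor of cartilage and of the testis. Neither gene body held an SMC1 or CTCF peak in any genotype. Near the KCNJ2 start, within exon 1 of the antisense gene KCNJ2-AS1, CTCF had fold enrichments of 6.78 in wild-type cells, 6.33 without WAPL, 4.94 without SCC4 and 12.2 in the double knockout, with no SMC1. The CTCF site 2.23 kb before the SOX9 start had 18.2, 16.5, 11.8 and 17.4, with no motif match in its window. SMC1 was called there only in ΔWAPL/ΔSCC4, at 5.90 from 14 reads. From SOX9 to the domain end, 377 kb, no peak of SMC1 or CTCF was called in any library.

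Between KCNJ2 and SOX9, 1941 kb, wild-type and ΔSCC4 cells had no SMC1 peak, ΔWAPL had 2 and ΔWAPL/ΔSCC4 had 3. CTCF peaks in this stretch numbered 8, 10, 3 and 12. The 3 left in ΔSCC4 included the SOX9 start site and the right side of the strand turn. Of the sites with SMC1 in wild-type, the nearest to KCNJ2 lay 600 kb before it, with SMC1 at 6.23, 4.61, 5.53 and 6.15 on CTCF at 17.8, 16.7, 15.5 and 16.5. It was the only SMC1 site of the domain found in all 4 genotypes, and unlike most others its level in ΔWAPL was not above wild-type, at 0.804 times (0.356 to 1.78). Just before KCNJ2 a further site had SMC1 only in ΔWAPL (6.43) and ΔWAPL/ΔSCC4 (5.89), where CTCF was 11.7 in wild-type and 18.6 and 15.3 in these lines.

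From just before KCNJ2 to SOX9, over sites with CTCF in any genotype, the motif strands fell into 2 runs. The 5 matches from just before KCNJ2 to the left side of the turn were all on the minus strand, and the 6 that followed, over 1323 kb, were all on the plus strand. The turn lay within 6.58 kb. Its left site had CTCF only in ΔWAPL (15.6) and ΔWAPL/ΔSCC4 (10.5), while its right site had 16.9, 17.1, 13.05 and 15.4 and SMC1 only in ΔWAPL/ΔSCC4 (5.01). The 2 sites of the turn thus point away from each other, the left one towards KCNJ2 and the right one towards SOX9. Of the 5 minus matches, 3 lay between KCNJ2 and SOX9, while those before KCNJ2 pointed away from it.

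**Figure D4:**
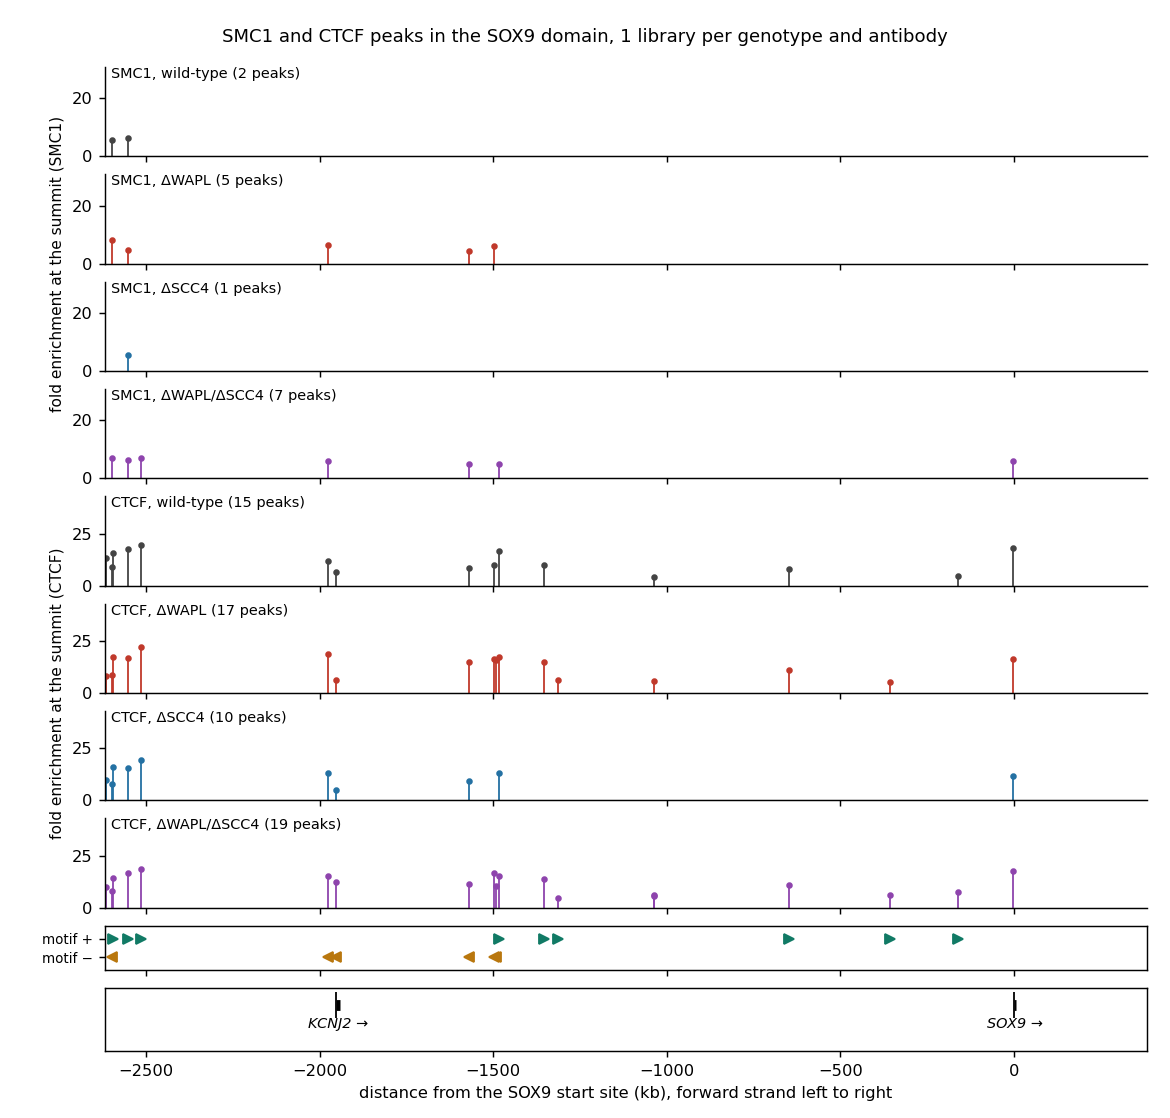
SMC1 and CTCF peaks of the SOX9 domain by genotype, drawn as fold enrichment at the summit against the distance from the SOX9 start in kb, with motif strands and genes beneath. SMC1 peaks number 2, 5, 1 and 7 from top to bottom, and the motif strand changes from minus to plus between KCNJ2 and SOX9.

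At the 25 SMC1 regions with a peak in all 4 genotypes, median levels relative to wild-type were highest in ΔWAPL and lowest in ΔSCC4. This choice leaves out the 9 of 35 wild-type regions that had no peak in ΔSCC4. For ΔWAPL the median ratio of the level to wild-type was 2.02 (range 0.804 to 4.51), for ΔSCC4 0.754 (0.402 to 1.52) and for the double knockout 1.32 (0.889 to 2.78). The medians over such regions of the whole genome were 1.67, 0.814 and 1.30. In ΔWAPL 20 of the 25 regions were at least 1.5-fold above wild-type (interval of the share 60.9 to 91.1%), against 59.6 percent of the genome, and 18 of the 25 had an interval wholly above 1. In ΔSCC4 6 of 25 were at least 1.5-fold below wild-type, against 24.9 percent, and 2 had an interval wholly below 1. In ΔWAPL/ΔSCC4 3 intervals were wholly above 1. By domain, the ΔWAPL median was 1.96 over 18 regions of the EPHA4 domain and 2.93 over 6 of the SHH domain. The ΔSCC4 median was 0.73 in the EPHA4 domain and 0.968 in the SHH domain, where 3 of the 6 regions lay above wild-type. On the scale of fold enrichment the ΔWAPL median was 1.44 and the ΔWAPL/ΔSCC4 median 1.09. CTCF levels were not higher than in wild-type by their medians, since at the 80 CTCF regions of all 4 genotypes ΔWAPL had a median level ratio of 0.827, ΔSCC4 of 0.830 and the double knockout of 0.924.

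**Figure D5:**
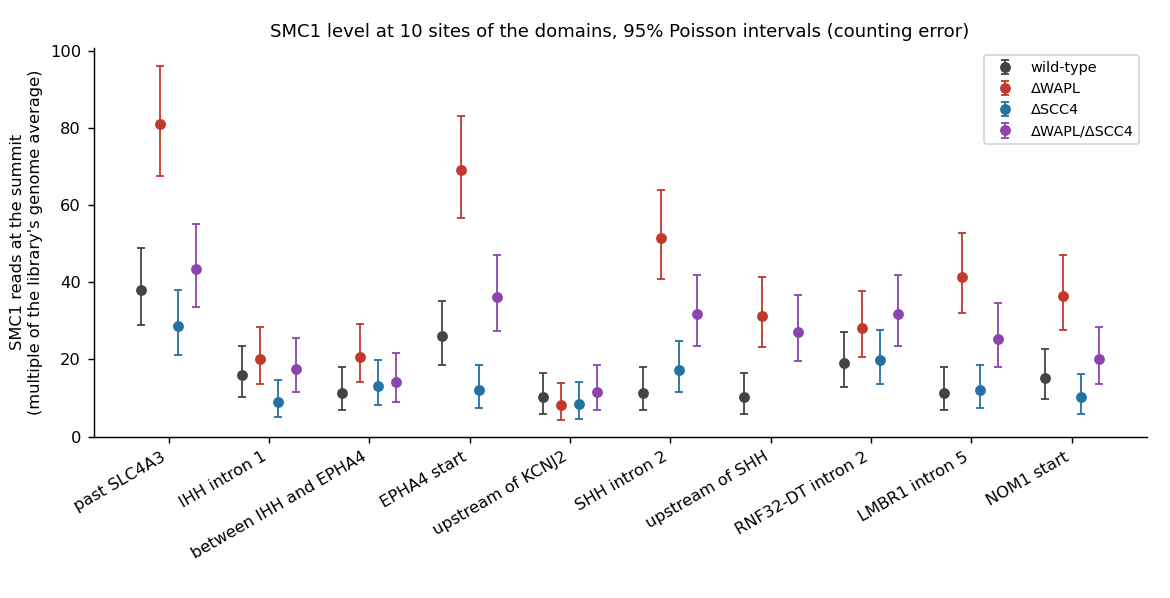
SMC1 level at 10 sites of the 3 domains, as summit reads divided by the genome average of the library, with 95% Poisson intervals of the reads and 1 point per genotype. At the SHH intron 2 site the points are 11.4, 51.5, 17.3 and 31.8 across the 4 genotypes, and upstream of SHH no ΔSCC4 point is drawn because no peak was called.

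Several sites away from the 8 genes were the strongest of their class by −log10 q. At the start of NOM1, beyond LMBR1, SMC1 fold enrichment was 6.73, 10.8, 5.41 and 7.30 on the strongest wild-type CTCF site of the SHH domain (26.8, 20.9, 25.4 and 22.98), and the SMC1 level in ΔWAPL was 2.39 times that in wild-type (1.46 to 4.03). Of the SMC1 sites at CTCF that ΔWAPL had and wild-type lacked, the strongest of the EPHA4 domain lay at DNPEP, with 10.3 in ΔWAPL and 6.83 in the double knockout. CTCF at DNPEP was present in all 4 lines, at 15.04, 13.4, 13.8 and 15.9. Of the wild-type SMC1 sites without a peak in ΔSCC4, the strongest of that domain lay in intron 1 of ASIC4, an ion channel gene. Its SMC1 values were 6.65 in wild-type cells, 11.05 without WAPL and 6.71 in the double knockout. In the SOX9 domain the same class held a single site, in intron 7 of MAP2K6, which encodes a MAP kinase kinase, at 5.65, 8.17 and 6.94. The strongest wild-type CTCF site before KCNJ2, in intron 2 of LINC01483, had CTCF at 19.5, 22.0, 19.3 and 18.8, and SMC1 was called there only in the double knockout, at 7.05.

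SMC1 at protein-coding starts of the domains was most frequent in ΔWAPL. Of 52 coding genes with a start in the domains, 3 had an SMC1 peak within 1 kb in wild-type cells (5.77%), 15 without WAPL (28.8%), 3 without SCC4 and 5 in the double knockout (9.62%). These shares lay below the 14.7 percent, 41.4 percent, 10.1 percent and 21.6 percent of all coding genes, and the intervals held the genome-wide share in wild-type and ΔSCC4 (1.98 to 15.6) and in ΔWAPL (18.3 to 42.3), but not in the double knockout (4.18 to 20.6). Neighbouring genes can share 1 SMC1 peak, as ENSG00000283128 and RBM33 did in ΔWAPL. The intervals treat genes as independent, so they are too narrow where peaks are shared. NHEJ1, EPHA4 and the nucleolar factor gene NOM1 had SMC1 at a start in all 4 genotypes. SMC1 was at a start only in ΔWAPL for TTLL4, CNPPD1, RETREG2, ZFAND2B, TUBA4A, SPEGNB, OBSL1, INHA, ENSG00000283128 and RBM33. DNPEP, an aspartyl aminopeptidase gene, and ENSG00000288658 had it in ΔWAPL and ΔWAPL/ΔSCC4. Among the 10 genes with SMC1 only in ΔWAPL, CTCF was within 1 kb in that line for 5, and not for ZFAND2B, OBSL1, INHA, ENSG00000283128 and RBM33. Of the 8 genes by which the domains were chosen, EPHA4 was the only 1 with SMC1 within 1 kb of a start in any genotype.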

How the data were processed

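Chromatin of HAP1 cells of 4 genotypes was precipitated with SMC1, CTCF or IgG antibodies, 1 library each, and the 12 deposited peak lists were used as they stand. The authors mapped reads to hg19 with Bowtie2 and, per the submitters' processing notes, called peaks with MACS2 2.1.1. The calling threshold is not given in the sources used here. The deposited fold enrichment is the authors' ratio of summit reads plus 1 to local background plus 1, and the authors' −log10 p-values and −log10 q-values came from its Poisson test. The study's methods name IgG as control, but in each list the backgrounds above the genome-wide floor were, for at least 99.98% of peaks, a whole number of the library's own reads in 10 kb.

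For each peak, the whole number of summit reads that solves both fold enrichment and −log10 p was found, with success for all 601 peaks in the domains. The level is these reads divided by the genome average of the library, which is the lowest background of its list. The step was tested on simulated data. Overlap by at least 1 bp made peaks shared. Genes and starts came from GENCODE version 44 mapped to GRCh37, whose chromosome ends hold every peak, and the 8 genes by which the domains were chosen all matched by symbol. Shares have Wilson intervals, and those of peak number ratios were converted from the Wilson interval of 1 number's share in the sum of both. Ratios of reads have exact binomial and levels exact Poisson intervals. All intervals are at 95% and for counting error only.

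Sites to be named were those in or within 5 kb of the start of these 8 genes (at most 6 a gene). Added were the strongest site of each class of gain or loss per domain and the strongest CTCF site per stretch. The sites with wild-type SMC1 and CTCF nearest to each start were also taken. Not all of these sites are described above. The SHH site downstream of the gene and the pair at the SOX9 strand turn were chosen after their values were seen. Genes, domains and lists were chosen with earlier results of these data known. Python 3.11.15 with numpy 2.4.6, scipy 1.17.1 and pandas 2.3.3 was used. Alternatives were stricter q-values or fold enrichment, IgG removal, equal depth together with −log10 p of at least 8, equal list length, moved domain ends, joined intervals, other overlap rules, a wider start window and a stricter motif score.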

Additional observations from a re-analysis of the deposited data

Results flagged for a closer look

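In 5 of 14 comparisons of a summary value, the loss of a gene went with a shift in opposite directions in the 2 backgrounds in which it was lost, which is why they are listed here. Each value comes from 1 library, and the differences were not tested. For SMC1, the median fold enrichment of peaks in the domains was lower without SCC4 than in wild-type (5.92 against 6.64) but higher in the double knockout than in ΔWAPL (6.76 against 6.45). By the same 4 values, the loss of WAPL went with a lower median in the wild-type background (6.45 against 6.64) and a higher one in the ΔSCC4 background (6.76 against 5.92). CTCF peaks in the domains numbered 101 in wild-type and 84 in ΔSCC4, and 112 in ΔWAPL and 115 in the double knockout. The CTCF median fold enrichment went from 12.3 to 13.7 from wild-type to ΔSCC4 and from 11.6 to 11.3 from ΔWAPL to the double knockout. The share of CTCF peaks with a motif match went from 78.2% to 78.6% and from 82.1% to 80.9%, in the same order.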

How the results depend on the processing

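Over 14 alternatives, 201 of 230 values stayed within the interval of the value reported, or within 1.5 times for a count, 29 moved out of it and 0 reversed. Only a ratio whose own interval left out 1 could count as reversed. The CTCF number ratios could not, and they fell as low as 0.968 in ΔWAPL and 0.978 in the double knockout. Stricter cuts were applied to SMC1 and CTCF lists alike. Values are in order of genotype where several follow. The ΔWAPL share of SMC1 peaks at CTCF was 94.5% at −log10 q of at least 5, 97.3% at 10, 98.0% at fold enrichment of at least 5, 98.0% at equal depth with −log10 p of at least 8 (both changed together, named joint below) and 100% at equal list length. The share of those without CTCF that lay near a start was 100% at q of 10 and in the joint setting and 0% at fold enrichment of 5, of a single peak. At q of 10, wild-type SMC1 peaks were found in ΔWAPL and the double knockout to 100% and in ΔSCC4 to 47.4%, motif shares were 85.5%, 89.3%, 88.7% and 88.4%, and the SMC1 peaks between the genes were 17, 33, 10 and 28. In the joint setting, whose 2 changes cannot be told apart, the double knockout kept 100% of wild-type SMC1 peaks and ΔSCC4 57.1%. At equal list length ΔSCC4 kept 92.6%, the ΔWAPL ratio of SMC1 numbers was 1.00, since that setting fixes the genome-wide numbers, and 7.41% of ΔWAPL peaks were absent from wild-type. On the fold enrichment scale the median level ratios were 1.44 in ΔWAPL and 1.09 in the double knockout. With the 1% motif threshold the shares were 68.3%, 71.4% and 70.4% in wild-type, ΔWAPL and the double knockout. No paired analysis was possible because each group is 1 library, and for the same reason no library could be left out. A stretch without a peak means only that none passed the caller's threshold at this depth.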
